A study of Homo sapiens with 6 samples.

Results

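The replication-dependent histone genes encode the linker histone H1 and the core histones H2A, H2B, H3 and H4 that package newly made DNA. Members were chosen by name: protein-coding genes whose current symbol is H1-1 to H1-6 or begins with H2AC, H2BC, H3C or H4C and a number. This gave 55 of the 30178 genes in the table, with no filter on level: 5 of H1, 11 of H2A, 18 of H2B, 8 of H3 and 13 of H4. Of these, 44 lie on chromosome 6, 9 on chromosome 1, 1 on chromosome 12 (H4C16) and 1 on chromosome 21 (H2BC12L). Another 7 rows with such symbols are not protein coding and were left out.

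The cells were CAL27, an established oral carcinoma line that the labels call adenosquamous. Every line was a stable line grown under the selection drug G418, and the labels describe the proteins as fused to GFP. The groups were MB21D2 carrying the Q311E substitution, wild-type MB21D2 and an empty vector, each with 2 libraries (A and B). Nothing in the labels tells whether libraries A and B came from different cultures, or how many clones a line holds, so the spread behind each p-value may be technical. The design text sets the Q311E form against the wild-type form.

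In dividing cells these histone genes are transcribed in S phase together with DNA replication. Their mRNAs are unusual in carrying no poly(A) tail: they end just after a short stem-loop that the stem-loop binding protein SLBP holds, and the U7 small nuclear RNP directs the cut. Some of the genes are also known to give longer, polyadenylated transcripts that run past the stem-loop, mostly in cells that leave the cycle or differentiate. Whether the libraries were made by poly(A) selection is not given in the sources used here, and this decides which of those RNAs are seen.

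The library totals behind the values lay between 20645410 and 24147306 reads. MB21D2 had 32.8 and 21.2 FPKM in the Q311E libraries, 104 and 106 in the wild-type libraries and 8.31 and 7.15 in the vector libraries, where FPKM counts reads per length of gene and depth of library. The level of MB21D2 therefore differs between the MB21D2 lines along with its form, and these cannot be told apart. The Q311E libraries differed more from each other than those of the other groups: over 11481 genes the SD of the log2 difference between A and B was 0.436 for Q311E, 0.145 for wild type and 0.192 for vector. All 13 squamous epithelium markers had a mean of at least 1 FPKM. Of the 13, 2 rose and 3 fell in Q311E against vector (8.67% and 9.28% of all tested genes). In Q311E against wild type 2 rose and 2 fell (17.5% and 10.1%). In wild type against vector 1 rose and 6 fell (3.54% and 8.76%). KRT14 of this list was at 0.771 and 0.902 FPKM in Q311E and 2.08 and 2.35 in wild type, against 762 and 697 in vector. Of the markers of other cells, 3 of 4 for leukocytes, 5 of 7 for fibroblasts and 3 of 4 for endothelium stayed below 1 FPKM. CDH5 of the endothelial list stood at 15.4 to 35.2 FPKM and CD14 of the leukocyte list at 1.78 to 18.8. Markers of glandular epithelium moved with the lines, and of 8, 6 had a mean of at least 1 FPKM. Of these 3 rose and 0 fell in Q311E against vector, where 8.67% and 9.28% of all tested genes did. In Q311E against wild type 4 rose and 0 fell (17.5% and 10.1% of all tested genes). In wild type against vector 2 rose and 1 fell (3.54% and 8.76%). MUC6, a secreted mucin, had 5.34 and 12.2 FPKM in Q311E, 1.75 and 2.38 in wild type and 0.00982 and 0.0517 in vector, and MUC16, a membrane mucin, had 6.16 and 5.74 in Q311E, 1.73 and 2.54 in wild type and 0.853 and 0.822 in vector. The summed level of the 8 was 837 and 510 FPKM in Q311E, 769 and 789 in wild type and 465 and 479.6 in vector, with MUC5AC and MUC5B below 1 FPKM in every library, and its part in the histone results was not tested.

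The stem-loop is the sequence these mRNAs share, and it bears on how their 3′ ends are annotated. A hairpin of 16 bases was searched on the sense strand of GENCODE 29 transcripts (GRCh38): a stem of 6 bases that opens with GGC, a loop of 4 bases that opens with TTT, and the 6 bases that pair with the stem, G with T allowed. It occurred in a transcript of 53 of 19951 protein-coding genes (0.266%) and of 26 of the 55 histone genes. Of the 29 histone genes without a match, 24 are annotated as a coding region alone, with no bases after the stop codon in which a stem-loop could be found. The stem-loops of 6 called members, chosen so that each of the 5 versions found is seen, are shown here with 5 bases on each side and the hairpin in capitals.
H2BC21: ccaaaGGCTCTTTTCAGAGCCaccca
H2AC6: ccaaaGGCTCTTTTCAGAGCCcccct
H2BC5: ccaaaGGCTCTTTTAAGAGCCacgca
H2AC11: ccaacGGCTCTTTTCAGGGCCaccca
H4C9: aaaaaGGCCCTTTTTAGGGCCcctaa
H4C11: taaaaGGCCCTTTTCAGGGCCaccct

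The H2BC21 stem-loop lies at chr1:149886188-149886203 on the minus strand and that of H2AC6 at chr6:26124669-26124684 on the plus strand. The others are at chr6:26158587-26158602 (H2BC5), chr6:27133515-27133530 (H2AC11), chr6:27139654-27139669 (H4C9) and chr6:27824459-27824474 (H4C11), all on the plus strand. The version in H2BC21 and H2AC6 was the commonest, with 13 genes, 8 of them H2B. The 2 versions that open with GGCCC were found in 8 H4 genes and in none of the other families. Past the stem-loop, the longest annotated transcript of H2BC21 went on for 1729 bases and that of H2AC6 for 1128, against 6 bases for H4C11.

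Histone RNA was higher in the Q311E line than in either other line. The 55 genes together took 168 and 256 reads per 1000000 reads of the library (RPM) in the Q311E libraries, 61.7 and 59.5 in the wild-type libraries and 61.2 and 56.0 in the vector libraries. Both Q311E libraries stood above all 4 others, and the wild-type and vector libraries lay close together. The mean of Q311E was 3.61 times that of vector and 3.5 times that of wild type, while wild type over vector was 1.03. By family, the ratio of Q311E to vector was 4.82 for H2B, 4.19 for H1, 3.47 for H3, 2.80 for H2A and 2.32 for H4. Every family was higher in both Q311E libraries than in any other library. The members with most reads, H2BC12, H2AC6, H1-2 and H2BC5, held 61.3% to 61.8% of histone reads in Q311E, 55.0% to 55.3% in wild type and 49.1% to 52.6% in vector.

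**Figure D1:**
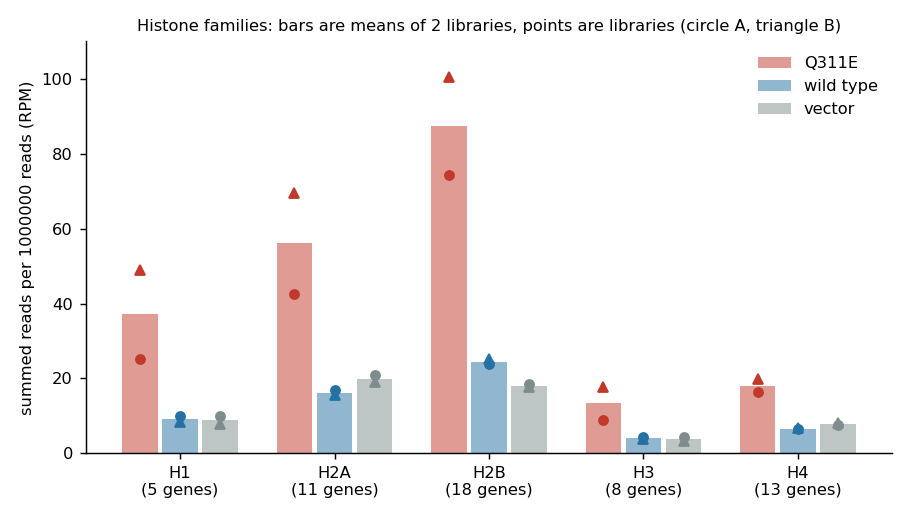
Reads of each histone family, summed over its genes, in RPM (reads per 1000000 reads of the library). Bars are means of 2 libraries and points are the libraries (circle A, triangle B), with Q311E left, wild type in the middle and vector right. In each family both Q311E libraries lie above the 4 others, with 74.2 and 100.4 RPM for H2B in Q311E, 23.9 and 25.1 in wild type and 18.4 and 17.8 in vector.

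Only 15 of the 55 members had a mean of at least 1 FPKM over the 6 libraries and were tested: 2 of H1, 4 of H2A, 5 of H2B, 2 of H3 and 2 of H4. The other 40 had few reads. The test was limma on log2(FPKM + 1) across 11481 genes, and a gene was called at a Benjamini-Hochberg adjusted p under 0.05 over all of them. Values below are FPKM in library A and then B, and fold changes are log2 values ± SE on the FPKM + 1 scale, which understates the change of low genes. H2BC21, H3C10 and H3C6 reached a mean of 1 FPKM only through Q311E, and H4C11 only through vector, so those genes had to differ and the counts below support nothing by themselves.

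Against vector, Q311E had 10 of the 15 tested histone genes called higher, where 8.67% of all tested genes were, and 2 called lower, where 9.28% were. Against wild type, Q311E had 12 called higher (17.5% of all genes) and 0 called lower (10.1%). No histone gene was lower in that comparison at an unadjusted p under 0.05 either, by limma or by limma-voom on recovered reads (0 and 0). Wild type against vector had 1 called higher (3.54% of all genes) and 2 called lower (8.76%). The median log2 fold change of the 15 was 1.08 for Q311E over vector, 1.07 for Q311E over wild type and 0.01 for wild type over vector, against medians of 0.0005, 0.05 and -0.05 over all tested genes. The comparisons with vector share its 2 libraries, and those with Q311E share the Q311E libraries.

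These calls rest on the close agreement of the vector and wild-type pairs. With 1 library left out, a group held a lone library, and the pairs left decided how many genes were called. Leaving out a vector or wild-type library lost calls among the histone genes, in some fits all of them, and among all tested genes alike. Leaving out a Q311E library lowered none of the histone counts and raised those of all tested genes. Such counts are thus not a result about the histone genes. In the alternatives run, 0 of 553 values for the 30 called gene-level results, which include MB21D2 in each comparison, changed sign. In each of these results the groups compared did not overlap, so leaving out 1 library could not change the sign. Fits with 1 library left out kept the genes chosen by the mean of all 6 libraries, H3C6 and H3C10 among them. Without a Q311E library, the lone one was taken to vary like the other groups.

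The linker histone H1-2, which binds DNA between nucleosomes, was among the most abundant members. It had 37.5 and 73.4 FPKM in Q311E, 13.6 and 10.96 in wild type and 13.1 and 9.88 in vector. Both Q311E libraries were high, B more than A, and did not overlap with the other 4, while wild type and vector overlapped. H1-2 rose in Q311E against vector (log2 fold change 2.11 ± 0.33, adjusted p = 0.0157) and against wild type (2.02 ± 0.33, adjusted p = 0.0149). Its relative H1-4 had 1.18 and 0.981 FPKM in Q311E, 0.872 and 0.871 in wild type and 1.26 and 1.22 in vector, and passed the test in none of the comparisons.

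Among the H2A genes, whose protein pairs with H2B in the nucleosome core, H2AC6 was the most abundant. H2AC6 had 17.6 and 31.1 FPKM in Q311E, 5.02 and 4.64 in wild type and 6.80 and 5.95 in vector. Only the Q311E libraries stood apart upwards, and the change was 1.73 ± 0.25 over vector (adjusted p = 0.014) and 2.07 ± 0.25 over wild type (adjusted p = 0.00816). H2AC11 had 2.21 and 3.04 FPKM in Q311E, 1.36 and 1.23 in wild type and 0.994 and 0.732 in vector. The 3 groups did not overlap, and H2AC11 rose by 0.96 ± 0.15 over vector (adjusted p = 0.017) and by 0.65 ± 0.15 over wild type (adjusted p = 0.033), the second not called after quantile normalization.

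H2AC25, which lies away from the large clusters on the long arm of chromosome 1, had 6.93 and 9.20 FPKM in Q311E, 4.41 and 3.77 in wild type and 5.27 and 5.20 in vector. Its rise passed the test over wild type (0.82 ± 0.14, adjusted p = 0.0169) but not over vector (0.53 ± 0.14, adjusted p = 0.0607), although the libraries did not overlap. H2AC20 went the other way. It had 1.57 and 2.02 FPKM in Q311E, 1.35 and 1.80 in wild type and 3.19 and 3.60 in vector. Vector was the high group here, and Q311E and wild type overlapped. H2AC20 fell by 0.66 ± 0.14 in Q311E (adjusted p = 0.0349) and by 0.77 ± 0.14 in wild type (adjusted p = 0.0303), both against vector. Both falls missed the threshold by limma-voom on recovered reads.

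H2BC12 carried the most H2B RNA and was the member with the smallest p in each comparison with vector. It had 105 and 98.4 FPKM in Q311E, 39.5 and 40.5 in wild type and 25 and 23.4 in vector. The 3 groups stood in 3 separate steps, and A and B agreed closely within each. H2BC12 rose by 2.03 ± 0.08 in Q311E over vector (adjusted p = 0.00143), by 1.32 ± 0.08 in Q311E over wild type (adjusted p = 0.00196) and by 0.70 ± 0.08 in wild type over vector (adjusted p = 0.0107). It was the one tested histone gene called higher in wild type than in vector.

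H2BC21, an H2B gene of the chromosome 1 cluster, showed the largest change of the tested members in Q311E. It had 5.44 and 11.6 FPKM in Q311E, 0.460 and 0.406 in wild type and 0.170 and 0.530 in vector, from 254 and 550 reads, 23 and 19 reads and 9 and 24 reads. The Q311E mean was 24.3 times the vector mean and 19.7 times the wild-type mean. The ratio to vector rests on few vector reads: it was 16.1 without vector A and 50.1 without vector B. On the test scale the change was 2.75 ± 0.33 over vector (adjusted p = 0.00906) and 2.65 ± 0.33 over wild type (adjusted p = 0.00828). As H2BC21 reached a mean of 1 FPKM only through Q311E, these p-values support nothing by themselves. Wild type and vector overlapped.

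The other tested H2B genes were higher in Q311E too. H2BC5 had 11.7 and 23.7 FPKM in Q311E, 2.27 and 2.91 in wild type and 3.38 and 2.67 in vector, a change of 2.14 ± 0.32 over vector (adjusted p = 0.0146). H2BC11 had 4.01 and 3.89 in Q311E, 1.89 and 1.93 in wild type and 1.26 and 1.53 in vector, a change of 1.05 ± 0.10 over vector (adjusted p = 0.00577). H2BC4 had 3.38 and 3.60 in Q311E, 0.789 and 1.57 in wild type and 1.34 and 0.929 in vector, a change of 1.08 ± 0.20 over vector (adjusted p = 0.0251). For all of these the Q311E libraries lay above the other 4. Over wild type, H2BC5 rose by 2.31 ± 0.32, H2BC11 by 0.77 ± 0.10 and H2BC4 by 1.07 ± 0.20, with adjusted p of 0.0105, 0.00916 and 0.0207. An antisense gene and a pseudogene overlap the span of H2BC5, and whether strand was used in counting is not given, so part of its reads may be theirs.

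**Figure D2:**
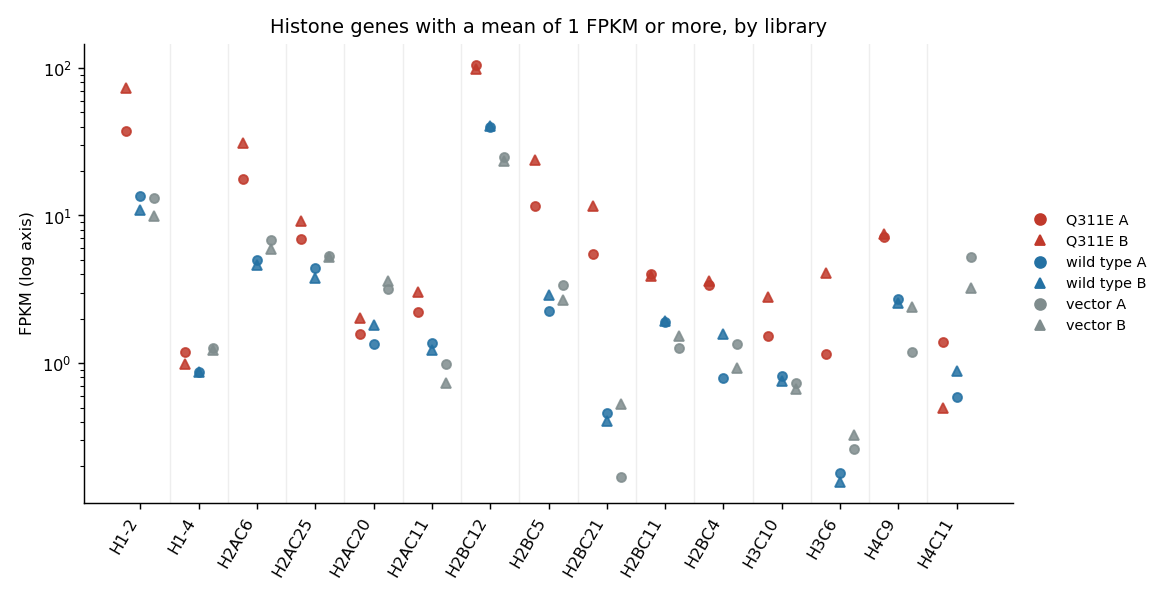
FPKM of the 15 tested histone genes in each library on a log axis, grouped by family, with Q311E left, wild type in the middle and vector right for each gene (circle A, triangle B). Both Q311E libraries lie above the other 4 for 12 genes, and both vector libraries lie on top for H2AC20, H4C11 and, by less, H1-4, which was not called.

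H3 and H4 form the tetramer at the centre of the nucleosome. Both tested H3 genes reached a mean of 1 FPKM only through Q311E, so their p-values support nothing by themselves. H3C6 had 1.16 and 4.09 FPKM in Q311E, 0.180 and 0.158 in wild type and 0.263 and 0.325 in vector. Both Q311E libraries were above the rest, but they differed 3.53-fold from each other. The change passed the test over wild type (1.5 ± 0.39, adjusted p = 0.0416) and not over vector (1.36 ± 0.39, adjusted p = 0.0692). H3C10 had 1.52 and 2.80 FPKM in Q311E, 0.815 and 0.758 in wild type and 0.737 and 0.666 in vector. It rose by 0.86 ± 0.21 over vector (adjusted p = 0.0434) and by 0.79 ± 0.21 over wild type (adjusted p = 0.042). Both calls of H3C10 were lost by limma-voom and after quantile normalization, as was that of H3C6 over wild type after quantile normalization. Over all alternatives the adjusted p of H3C10 ran between 0.00107 and 0.205 over vector and between 0.000707 and 0.202 over wild type.

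The 2 tested H4 genes moved apart. H4C9 had 7.15 and 7.54 FPKM in Q311E, 2.71 and 2.57 in wild type and 1.18 and 2.40 in vector, with no overlap between the groups. It rose by 1.62 ± 0.21 over vector (adjusted p = 0.0113) and by 1.20 ± 0.21 over wild type (adjusted p = 0.0173). H4C11 had 1.39 and 0.496 FPKM in Q311E, 0.588 and 0.880 in wild type and 5.22 and 3.25 in vector, from 11 and 4, 5 and 7, and 47 and 25 reads. Vector was high and the MB21D2 lines overlapped. H4C11 fell by 1.44 ± 0.29 in Q311E (adjusted p = 0.0289) and by 1.57 ± 0.29 in wild type (adjusted p = 0.03), both against vector. As H4C11 reached a mean of 1 FPKM only through vector, these p-values support nothing by themselves.

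**Figure D3:**
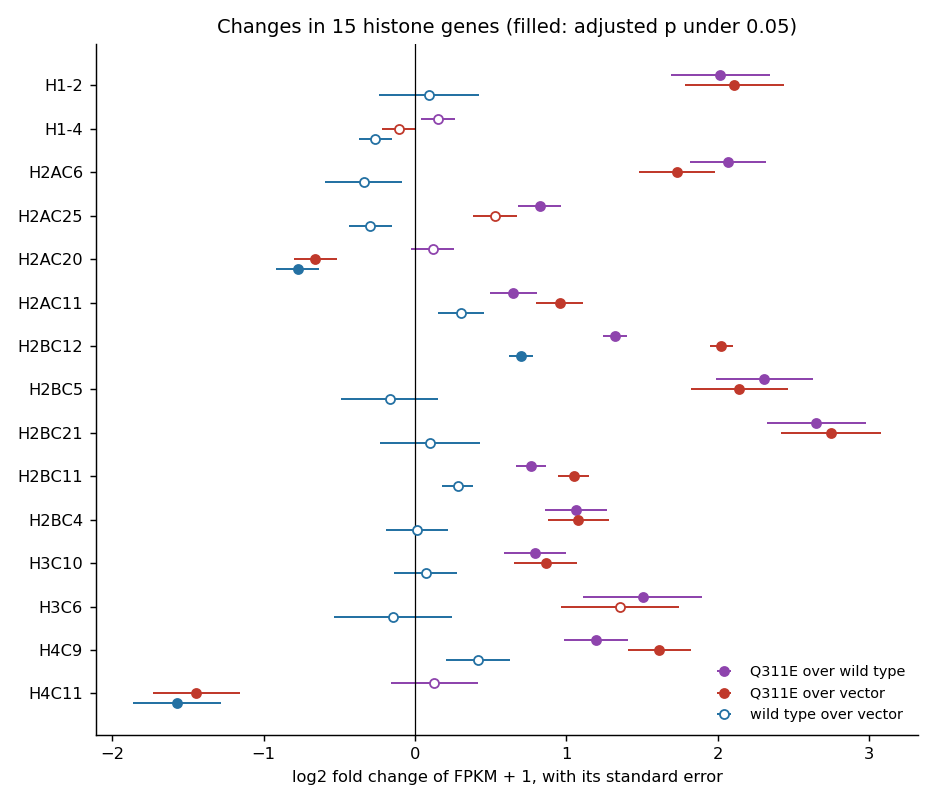
Log2 fold change of FPKM + 1 with its standard error for the 15 tested histone genes, for Q311E over wild type, Q311E over vector and wild type over vector. Filled points have an adjusted p under 0.05. The points of both Q311E comparisons lie right of 0 for 12 genes, while the wild-type comparison has 1 filled point to the right (H2BC12) and 2 to the left (H2AC20 and H4C11).

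All 55 genes can be described by whether their libraries overlap. In Q311E against vector, 26 were higher in both Q311E libraries than in either vector library, where 25.5% of all 30178 rows were, and 10 were lower (16.7%). In Q311E against wild type, 28 were higher (32.7%) and 1 was lower (15.1%). In wild type against vector, 10 were higher (18.8%) and 17 were lower (28.6%). Of the 40 genes below a mean of 1 FPKM, 14 were higher and 7 lower in Q311E against vector, where 22.6% and 8.53% of rows below that level were. Of those 40, 15 were higher and 1 lower in Q311E against wild type (28.7% and 5.52%), and 5 were higher and 11 lower in wild type against vector (10.6% and 18.6%).

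The low genes are best read as reads. Of the 40, the highest by mean FPKM were H2AC8, H4C3, H4C16, H3C8, H2BC17 and H4C12. H4C16 had 55 and 83 reads in Q311E, 23 and 23 in wild type and 53 and 30 in vector. H3C8 had 63 and 49 in Q311E, 50 and 35 in wild type and 36 and 14 in vector. H2AC8 had 12 and 20 in Q311E, 10 and 6 in wild type and 7 and 9 in vector. In each of these both Q311E libraries exceeded the vector libraries on the FPKM scale. H4C3 had 7 and 7 reads in Q311E, 2 and 5 in wild type and 10 and 18 in vector, with vector the high group, while H2BC17 and H4C12 overlapped between Q311E and vector with at most 14 reads in any library.

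Other low genes picked for their difference were H4C8 and H2BC15. H4C8 had 33 and 81 reads in Q311E, 19 and 21 in wild type and 8 and 8 in vector. H2BC15 had 30 and 49 in Q311E, 14 and 9 in wild type and 5 and 7 in vector, and other histone genes overlap its span. In both genes the 3 groups did not overlap. Histone genes of a family have near-identical coding sequences, and how reads shared between copies were counted is not given, so single low members are uncertain.

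Histone genes with a long annotated 3′ end were mostly higher in Q311E, while most others were not. The genes were sorted, after their values were seen, by the longest annotated stretch after the stop codon in GENCODE 29. In 25 genes it is longer than 100 bases, in 6 it is 1 to 100 bases, and in 24 the model is the coding region alone. Of the 25 genes with a long 3′ end, 21 were higher and 0 lower in Q311E than in vector without overlap, where 30.7% and 23.8% of protein-coding rows with a long 3′ end were. Of the 24 coding-only genes, 3 were higher and 6 lower, where 17.8% and 10.3% of such rows were, and of the 6 with a short 3′ end 2 were higher and 4 lower (25.2% and 16.9%). Within the genes below 1 FPKM, 11 of 15 with a long 3′ end were higher and 0 lower, where 31.9% and 11.2% of such rows below that level were. Of the 25 others 3 were higher and 7 lower, where 22% and 8.79% were.

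Against wild type, 21 of the 25 genes with a long 3′ end were higher in Q311E and 0 lower (39.7% and 23.3% of such rows), 2 of the 6 with a short one were higher and 0 lower (32.1% and 11.1%), and 5 of the 24 coding-only genes were higher and 1 lower (21.9% and 4.11%). In wild type against vector, 7 of 25 with a long 3′ end were higher and 6 lower (26.9% and 39.0%). There, 1 of 6 with a short one was higher and 4 lower (15.2% and 31.0%), and 2 of 24 coding-only genes were higher and 7 lower (8.90% and 17.1%).

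Summed over all genes of a class, the reads do not show this split between long and coding-only genes. The genes with a long 3′ end had 98.0 and 165 RPM in Q311E, 33.9 and 31.7 in wild type and 34.4 and 32.7 in vector. The genes with a short one had 2.49 and 1.71 in Q311E, 1.32 and 1.97 in wild type and 3.89 and 3.58 in vector. The coding-only genes had 67.1 and 89.6 in Q311E, 26.6 and 25.7 in wild type and 22.98 and 19.7 in vector. Q311E was 3.92 times vector for the long class and 3.67 times for the coding-only class, and 0.562 times for the short class. The short class rests largely on H4C11, which held 47 and 25 of its 94 and 74 reads in vector. In Q311E H4C11 held 11 and 4 of 53 and 37 reads, and the short class was not summed without it. H2BC12 and H1-2, which both rose, hold nearly all coding-only reads. They were left out in a further sum, a choice made after seeing the values. The other 22 coding-only genes had 3.10 and 4.99 RPM in Q311E, 2.81 and 3.28 in wild type and 5.05 and 4.46 in vector. For these, Q311E was 0.851 times vector and 1.33 times wild type, with Q311E and vector overlapping. The values are per gene and do not show where in a transcript the reads lie, so whether they come from RNA that runs past the stem-loop was not tested.

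**Figure D4:**
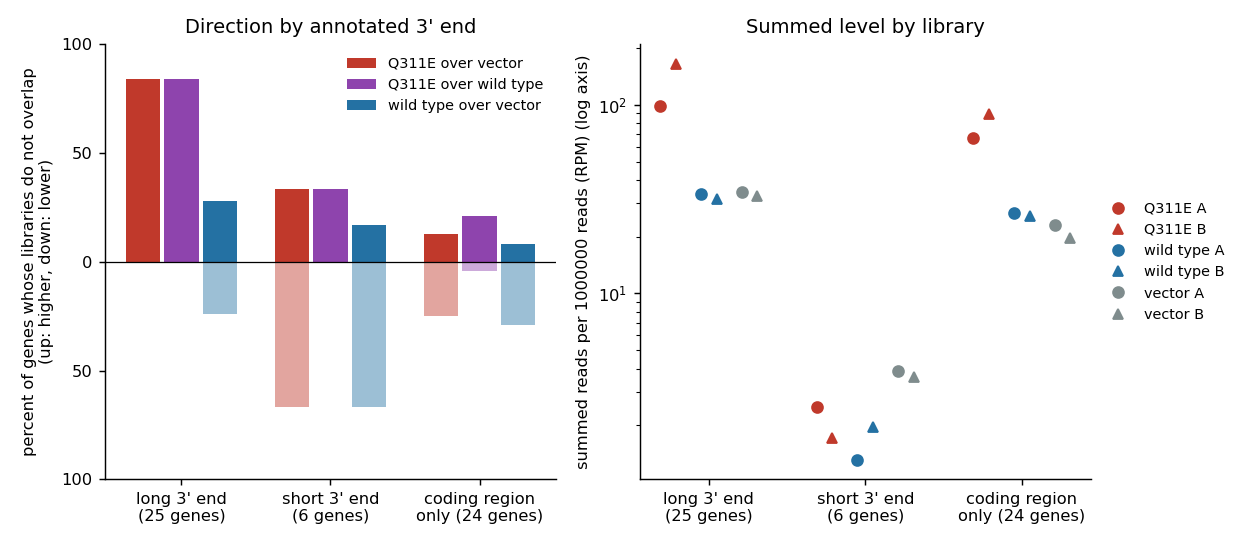
Histone genes by the length of their annotated 3′ end. Left, the percent of genes in each class whose libraries do not overlap, higher (up, solid) or lower (down, pale), for Q311E over vector, Q311E over wild type and wild type over vector. Right, summed RPM in each library on a log axis (Q311E, wild type, vector from left to right). In the long class 21 of 25 genes are higher in Q311E and 0 are lower. In the short class both vector libraries lie above the Q311E and wild-type libraries, with H4C11 holding 47 and 25 of the 94 and 74 vector reads.

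Many H2A and H2B genes sit head to head and share the short stretch between their starts. There were 9 such pairs under 1000 bases apart, with 218 to 356 bases between the annotated genes, and 8 of them join an H2A and an H2B gene. In 3 pairs (H2BC4 with H2AC6, H2BC11 with H2AC11, and H2BC8 with H2AC8) both genes were higher in Q311E than in vector without overlap. In 3 other pairs the genes parted. H2BC21 had 254 and 550 reads in Q311E, against 9 and 24 in vector, while its partner H2AC20, which starts 322 bases away, had 13 and 17 in Q311E and 30 and 29 in vector.

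H2BC12 had 849 and 811 reads in Q311E, 343 and 329 in wild type and 230 and 184 in vector. Its partner H2AC12, 330 bases away, had 1 and 3 in Q311E, 2 and 1 in wild type and 11 and 7 in vector. Thus H2BC12 rose while the few H2AC12 reads were fewer in both MB21D2 lines than in vector, with no overlap. In the low pair H2BC13 and H2AC13, H2BC13 had 3 and 2 reads in Q311E against 7 and 7 in vector, and H2AC13 had 9 and 7 in Q311E against 7 and 5 in vector. In the remaining pairs at least 1 gene overlapped between Q311E and vector.

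**Figure D5:**
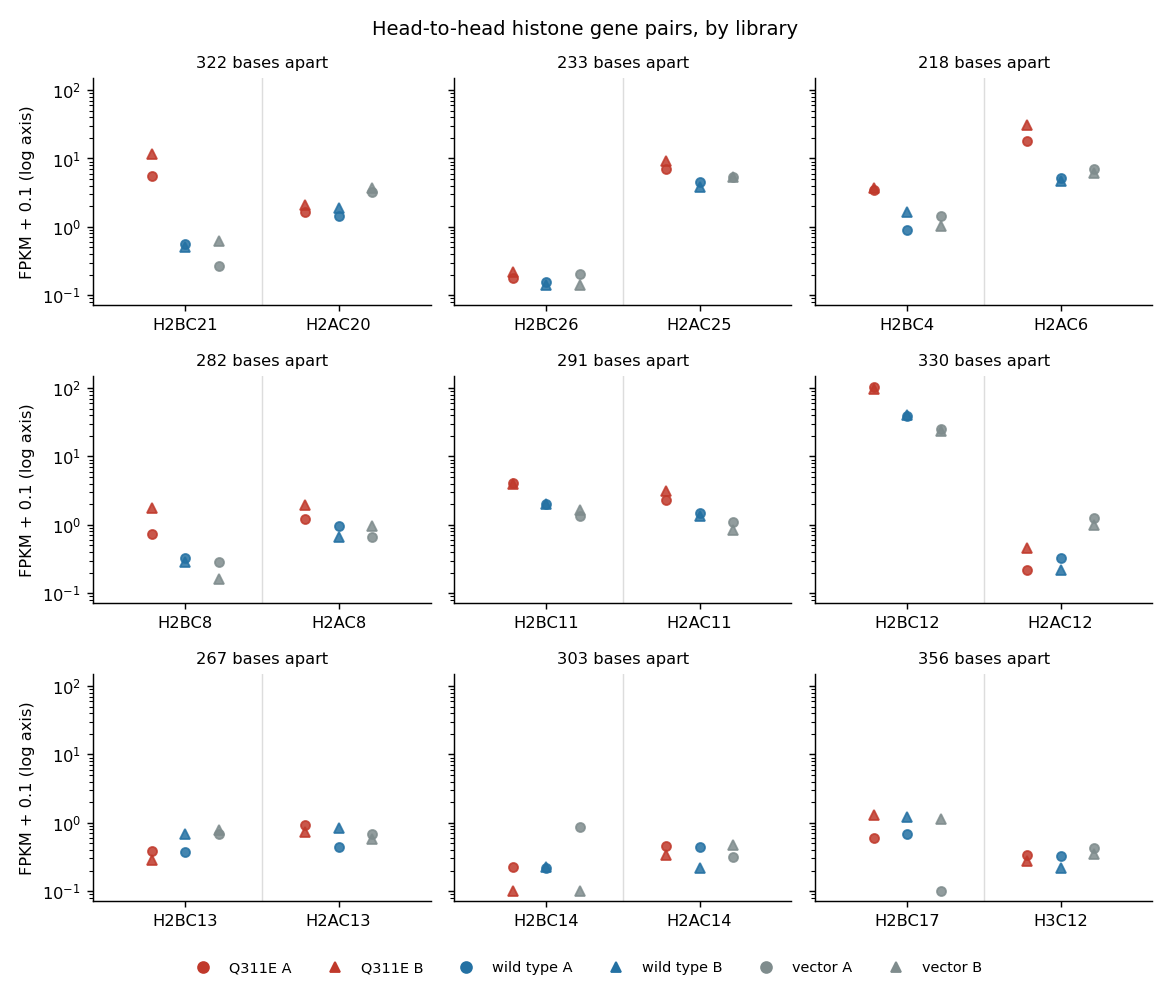
FPKM + 0.1 on a log axis for the 9 head-to-head histone gene pairs in each library, with Q311E left, wild type in the middle and vector right for each gene (circle A, triangle B). H2BC21 and H2BC12 are highest in Q311E while their partners H2AC20 and H2AC12 are highest in vector, and in the pairs of H2BC4, H2BC11 and H2BC8 both genes are highest in Q311E.

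The promoters of H2BC12 and H2BC21 are shown because those genes rose while the gene across the shared stretch did not. Each run has 250 bases before and 50 bases from the gene's start on, from RefSeq on GRCh38.p14, on the minus strand: chr6:27146809-27147108 for H2BC12 and chr1:149886633-149886932 for H2BC21. Capitals mark TATAAA (the TATA box), CCAAT (the box of that name) and ATTTGCAT, the octamer known from H2B promoters, and the reverse complement of each.
H2BC12: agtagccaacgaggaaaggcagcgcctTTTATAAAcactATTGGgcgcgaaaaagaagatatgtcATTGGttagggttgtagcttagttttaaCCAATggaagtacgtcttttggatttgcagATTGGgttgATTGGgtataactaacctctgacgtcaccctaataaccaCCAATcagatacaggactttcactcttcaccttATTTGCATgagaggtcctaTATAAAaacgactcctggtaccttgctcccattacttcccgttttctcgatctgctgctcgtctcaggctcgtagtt
H2BC21: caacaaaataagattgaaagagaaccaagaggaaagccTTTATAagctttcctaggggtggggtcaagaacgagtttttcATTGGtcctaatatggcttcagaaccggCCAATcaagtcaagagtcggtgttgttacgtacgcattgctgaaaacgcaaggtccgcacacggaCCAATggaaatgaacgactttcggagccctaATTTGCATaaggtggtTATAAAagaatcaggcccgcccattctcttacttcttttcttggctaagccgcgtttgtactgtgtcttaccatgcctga

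Both promoters held all 3 motifs, the octamer once each. RefSeq promoters of this length matched 49 of the 55 histone genes. The octamer occurred in 13 of 17 H2B promoters, 8 of 10 H2A promoters and 0 of 22 others, against 1.80% of all 27305 promoters. CCAAT occurred in 39 of the 49 (35.7% of all promoters) and TATAAA in 33 (12%). Among the 15 tested genes the octamer was present in 7, namely H2AC11, H2AC20, H2AC6, H2BC11, H2BC12, H2BC21 and H2BC4. Different motifs did not overlap each other in any of the 49 (0 promoters), while in H2BC12 the capitals TTTATAAA hold TATAAA on both strands. Of the 7 tested genes with the octamer, H2AC20 was called lower in Q311E against vector and the others were called higher. Among the tested genes without the octamer, H1-2, H2BC5, H3C10 and H4C9 were called higher and H4C11 lower. H1-4, H2AC25 and H3C6 were not called. The part of the octamer was not tested.

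The rise was uneven between the Q311E libraries. For 6 of the 15 tested genes library B was more than 1.5 times library A within Q311E, where 10.2% of all tested genes were: H3C6 (3.53), H2BC21 (2.13), H2BC5 (2.04), H1-2 (1.96), H3C10 (1.85) and H2AC6 (1.76). By contrast H2BC12 (0.940), H2BC11 (0.972), H4C9 (1.05) and H2BC4 (1.07) were alike in A and B. H4C11 was lower in B (0.358). In wild type 1 tested gene passed 1.5 (1.32% of all genes) and in vector 2 did (2.62%). Q311E A taken alone also stood above the other lines. Summed over all 55 members, it had 168 RPM. Wild type had 61.7 and 59.5 RPM, and vector 61.2 and 56.0.

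In the gene lists that follow, the shares to read a count against are those of all tested genes. These were 8.67% higher and 9.28% lower in Q311E against vector, 17.5% and 10.1% in Q311E against wild type, and 3.54% and 8.76% in wild type against vector. Of 30 genes for histone mRNA transcription and 3′ processing, 1 rose and 3 fell in Q311E against vector (median -0.08), the falls near the share of all genes, 1 rose and 7 fell against wild type (-0.15), and 2 rose and 1 fell in wild type against vector (0.13). SNRPB, a core protein of the small nuclear RNPs, had 161 ± 5.07 FPKM in Q311E, 281 ± 0.208 in wild type and 396 ± 12.3 in vector (SD, n = 2). It fell by 1.30 ± 0.09 in Q311E against vector (adjusted p = 0.00349). LSM10, a subunit of the U7 RNP, had 13.1 ± 0.738 FPKM in Q311E and 20.3 ± 1.19 in vector (-0.60 ± 0.08, adjusted p = 0.0124). SLBP had 39.9 and 32.1 FPKM in Q311E, 46.5 and 46.8 in wild type and 45.3 and 41.1 in vector and was not called in Q311E against vector, and CDK9, a kinase of transcription elongation, rose by 0.48 ± 0.08 (adjusted p = 0.0175).

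Of 29 tested histone chaperone and deposition genes, 0 rose and 4 fell in Q311E against vector (median -0.16) and 0 rose and 6 fell against wild type (-0.21), while 1 rose and 0 fell in wild type against vector (0.10). The falls against vector were ANP32E, NAP1L1, the FACT subunit SSRP1 and CHAF1B, a subunit of the assembly factor CAF-1. SSRP1 had 53.7 ± 7.98 FPKM in Q311E and 76.0 ± 4.25 in vector (-0.50 ± 0.12, adjusted p = 0.0422).

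Of 42 genes of S phase and DNA replication, 0 rose and 7 fell in Q311E against vector (median -0.24), 0 rose and 7 fell against wild type (-0.37), and 0 rose and 0 fell in wild type against vector (0.09). The sliding clamp PCNA had 195 ± 27.95 FPKM in Q311E, 331 ± 0.0129 in wild type and 302 ± 5.48 in vector, and fell by 0.64 ± 0.12 against vector (adjusted p = 0.0257). GINS1 of the replicative helicase fell by 0.75 ± 0.11 against vector (adjusted p = 0.0142). PCNA and GINS1, like SNRPB above, lie on chromosome 20, while PRIM1 on chromosome 12 and POLE2 on chromosome 14 were also called lower against vector. The part of location in these falls was not tested. Set over the vector mean, library A of Q311E had a median log2 ratio of -0.02 for the list and library B one of -0.53. The library with more histone RNA was thus the one with less replication RNA, and the part of either in the other was not tested.

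A list of 15 tested genes held CDK inhibitors, the retinoblastoma family and other genes of cell cycle exit, and also the G1 cyclins CCND1, CCND2 and CCND3, which drive the cycle. Of these, 2 rose and 0 fell in Q311E against vector (median 0.14) and 7 rose and 0 fell against wild type (0.39), while 0 rose and 2 fell in wild type against vector (-0.22). CCND2 was among the 7 and among the 2 that fell in wild type. CDKN1A, the p21 inhibitor of cyclin-dependent kinases, had 11.4 and 12.8 FPKM in Q311E, 1.998 and 2.35 in wild type and 4.25 and 5.34 in vector. It rose by 1.18 ± 0.13 over vector (adjusted p = 0.00802), and CDKN2B rose by 0.86 ± 0.10 (adjusted p = 0.00974).

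Histones made outside S phase behaved differently from one another. Of 10 tested variant and replication-independent histone genes, 1 rose and 2 fell in Q311E against vector (median -0.08), 3 rose and 2 fell against wild type (-0.13), and 0 rose and 3 fell in wild type against vector (-0.10). H2AZ1, the H2A variant at gene starts, had 82.6 ± 1.78 FPKM in Q311E, 98.4 ± 0.517 in wild type and 142 ± 6.13 in vector and fell by 0.78 ± 0.08 in Q311E against vector (adjusted p = 0.0066). H2AJ had 11.4 ± 1.48 FPKM in Q311E, 4.72 ± 0.577 in wild type and 7.39 ± 0.526 in vector and rose by 0.56 ± 0.13 over vector (adjusted p = 0.0386). CENPA, the H3 variant of centromeres, fell by 0.41 ± 0.10 against vector (adjusted p = 0.0461).

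Other RNAs that lack a poly(A) tail were mostly near 0, with 10 of 13 below a mean of 1 FPKM. The signal recognition particle RNA RN7SL2 had 125 and 242 FPKM in Q311E, 184 and 204 in wild type and 522 and 962 in vector, and fell by 2.02 ± 0.40 in Q311E against vector (adjusted p = 0.0285). RN7SL1 fell by 1.36 ± 0.34 (adjusted p = 0.0472). In wild type against vector RN7SL2 fell by 1.86 ± 0.40 (adjusted p = 0.043) and RN7SL1 gave -1.16 ± 0.34 (adjusted p = 0.0827), while summed histone reads in wild type were 1.03 times those in vector. How much RNA without a tail entered each library was not tested.

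The large cluster on chromosome 6 also holds other genes. Between the first and the last histone member there (26017085 to 27893843, GRCh38), 14 tested genes are not among the members chosen by symbol. In Q311E against vector 3 of these rose and 0 fell (median 0.23; 8.67% and 9.28% of all tested genes), where 9 of the 12 tested histone genes of the same stretch rose and 1 fell. In Q311E against wild type 8 of the 14 rose and 0 fell (median 0.42; 17.5% and 10.1% of all tested genes), beside 10 and 0 of the histone genes, and in wild type against vector 0 rose and 4 fell (median -0.30), beside 1 and 1. The 14 include ENSG00000274267, a protein-coding row without a current symbol that starts at 26031650. It may be a histone gene that the choice by symbol missed. Its mean was 1.36 FPKM in Q311E, 0.822 in wild type and 0.892 in vector, and it was called in none of the comparisons. The butyrophilin genes BTN3A2, BTN3A1 and BTN3A3 rose against vector by 0.70 ± 0.12, 0.58 ± 0.11 and 0.54 ± 0.11 (adjusted p = 0.0183, 0.0245 and 0.0301). On chromosome 1, H2BC21 rose and H2AC20 fell within the same cluster.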

How the data were processed

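RNA sequencing of 6 CAL27 libraries was analysed from 1 deposited table. Its FPKM values were made by the authors, and the submitters' processing notes name CASAVA and the builds mm8 and mm9 without a role, although the gene IDs are human. Libraries followed a standard Illumina protocol on total RNA extracted with QIAGEN material, per the labels' protocols. Which aligner, counter, annotation and strand setting were used is not given in the sources used here.

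Symbols matched 29993 of the 30178 IDs, and gene models came from GENCODE 29 on GRCh38. A histone gene whose ID has no current symbol could not be chosen as a member. Low FPKM values are whole multiples of the value of 1 read, which gave back whole reads within a tolerance of 0.001 for 30030 genes (99.51%). For the histone genes 54 came out at the GENCODE 29 length and 1 (H2AC21) at a fitted length. Reads cover counting error only.

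Tests used limma 3.58.1 (R 4.3.3) on log2(FPKM + 1), fitted jointly to the 3 groups, with 3 residual degrees of freedom and a trended variance prior. The 11481 genes whose mean FPKM reached 1 entered. Calls are two-sided at a Benjamini-Hochberg adjusted p under 0.05 over all genes tested. The fit was run on simulated data in which every group had the same spread. In the real data the Q311E pair spread more than the others, so that run does not show how the calls fare under unequal spread. Groups were said not to overlap when all FPKM values of the first lay above, or all below, those of the other.

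Named are the histone genes that were tested or called, the 6 highest of the rest, and called genes of the other lists by smallest p, at most 6 for each list and comparison, of which the text prints a selection. Members picked later are said to be so. The members and gene lists were chosen with earlier results of these data known. Alternatives changed the pseudocount, filter, scaling, test, groups fitted and libraries. Tables and figures used pandas 2.3.3, numpy 2.4.6 and matplotlib 3.10.9.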

Additional observations from a re-analysis of the deposited data

How the results depend on the processing

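The 30 called gene-level results include those of MB21D2 in each comparison. Their direction held in all 553 alternative values, and 151 of these values no longer passed the threshold. In each of the 30 the groups compared did not overlap, so leaving out 1 library, for instance, could not turn the direction. That the direction held is therefore little support. The number of histone genes called did depend on the processing. Shares of all genes fitted that were called in the same setting stand in brackets. Q311E over vector had 10 called higher and 2 lower (8.67% and 9.28%). With no filter on low values, where 55 members were fitted, it had 6 and 0 (2.12% and 1.89%). With a filter of 5 FPKM, where 5 members were fitted, it had 4 and 0 (8.60% and 13.0%). With only those groups fitted it had 3 and 0 (1.24% and 1.05%). By limma-voom on recovered reads 1 was lower (9.04%). Weighting libraries by the spread of their group, an alternative chosen after seeing the data, gave 0 lower (3.67%). Wild type over vector had 1 higher and 2 lower. Lower calls were 0 with no filter, 0 with the filter of 5 FPKM, 4 with only those groups, 1 by limma-voom, and 1 with the trend on gene length removed (also chosen after seeing the data), which gave 2 higher. Group weights gave 3 higher and 5 lower, and leaving out 1 library gave 0 to 2 higher and 0 to 4 lower. Q311E over wild type had 12 higher, against 6 with no filter, 5 with the filter of 5 FPKM, 7 with only those groups and 0 to 12 with 1 library left out. Where fewer libraries or groups were fitted, fewer residual degrees of freedom remained, and the pairs left decided the spread.

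Uncalled values that changed sign were small. Wild type over vector gave -0.0277 for H2BC4 by limma-voom, 0.0572 for H2BC5 with the length trend removed and 0.0411 for H3C6 after quantile normalization. With 1 library left out it gave -0.0947 to 0.292 for H2BC21, -0.0937 to 0.279 for H1-2 and -0.249 to 0.277 for H2BC4. Q311E over wild type gave -0.105 for H2AC20, -0.0574 for H1-4 and -0.112 for H4C11 after quantile normalization, which put the median of all genes at -0.07, against 0.05 without it. The same genes gave -0.0775, -0.0370 and -0.0641 with the length trend removed. With 1 library left out H2AC20 gave -0.0111 to 0.244 and H4C11 -0.208 to 0.466. The cause was not tested.

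Nothing in the labels says that the letters A and B mark a shared batch or culture, so they were not taken as pairs. The correlation over 11481 genes of the A minus B difference was 0.387 between Q311E and vector, -0.03 between wild type and vector and -0.01 between Q311E and wild type. A fit with the letters as a replicate block called 9 higher and 2 lower in Q311E over vector (8.20% and 8.71% of all tested genes). It called 1 and 2 in wild type over vector (3.26% and 8.06%), and 12 and 0 in Q311E over wild type (17.5% and 10.9%). The call it lost was H3C10 in Q311E over vector (adjusted p = 0.0549). Depth limits the 40 low members, most of which rest on a few reads in each library.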
